A study of Mus musculus with 3 samples.

Results

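The peaks described here are those that an antibody against H3K4me3 gave on the distal part of mouse chromosome 12. They were selected on their listed position alone, as all peaks on chromosome 12 that start at or beyond 100 Mb, but the interval itself had been chosen from the measured peak density along the chromosome. Of the 9929 H3K4me3 peaks in the list, 242 lay there, or 2.44%. They made up 39.5% of the 613 peaks of chromosome 12, on 17% of its length up to the last listed peak at 120.48 Mb. Positions are given as listed, on the mm9 build that the submitters' processing notes name.

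BNC1 is a zinc finger transcription factor found in germ cells and also in basal keratinocytes. The study used chromatin immunoprecipitation with sequencing (ChIP-seq) to locate it on the chromatin of the mouse ovary. The 3 samples of the study were 1 H3K4me3 immunoprecipitation, 1 BNC1 immunoprecipitation and 1 input of chromatin sequenced without an antibody. All were prepared from whole ovaries of C57BL/6 J mice that were wild type and 8 weeks old. No mutant or treatment is given for any of them, although the title of the BNC1 sample ends in the word treated. Peak lists of both antibodies were used, and the input was not analysed here. Whole ovary mixes oocytes with granulosa, theca, stromal and other cells, and the number of mice behind a library is not given in the sources used here. With 1 library per antibody there is no replicate check. All values below are therefore descriptions with no test. Intervals cover only counting error or, for medians, the sampling of peaks taken as independent.

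H3K4me3 is the trimethylated form of lysine 4 on histone H3. It is laid down by the SET1 and MLL methyltransferase complexes, is read by proteins with a PHD finger such as a subunit of the general transcription factor TFIID, and sits mainly around the start sites of active or poised genes, where CpG-rich promoters carry broad stretches of it. The distal part of mouse chromosome 12 is known for the imprinted domain of *Dlk1*, which encodes a Notch-like ligand expressed from the paternal copy, and *Meg3*, a noncoding RNA expressed from the maternal copy. Farther along the chromosome follow the kinase gene *Akt1* and the immunoglobulin heavy chain locus, whose segments are rearranged in B cells. Peaks were not assigned to these or other genes, because the gene table at hand is of another build, GRCm38.p6.

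The 242 peaks were not spread evenly, and most of them lay in a few dense stretches. In windows of 1 Mb, the number of peaks ran from 0 to 46 with a median of 8. The window from 112 to 113 Mb held 46 peaks, that from 114 to 115 Mb held 30, and that from 113 to 114 Mb held 29. These 3 neighbouring windows together held 43.4% of the peaks, with 43.6% of the bases covered by peaks and 43.6% of the tags. Tags are the raw counts that the list gives for each peak. The next fullest windows were 103 to 104 Mb with 22 peaks, 106 to 107 Mb with 17, 111 to 112 Mb with 14 and 109 to 110 Mb with 13. Of the 21 windows, 9 held 10 or more peaks and accounted for 194 of the 242. The windows from 108 to 109 Mb and from 115 to 116 Mb held none, and 3 others held 1 or 2.

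**Figure D1:**
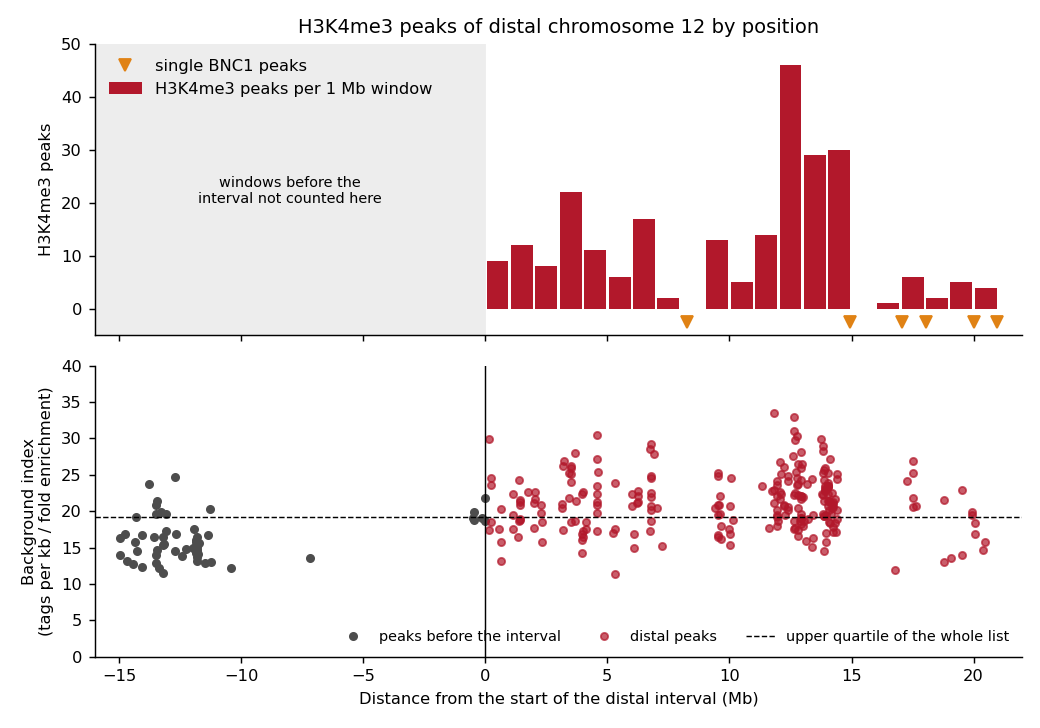
The upper panel shows the number of H3K4me3 peaks in each 1 Mb window of distal chromosome 12 as bars and the position of each BNC1 peak as a triangle, with distance from the start of the interval in Mb on the x axis. The lower panel shows the background index of each H3K4me3 peak (tags per kb divided by fold enrichment) from 15 Mb before the interval to its end, where most peaks of the interval sit above the upper quartile of the whole list (dashed line) and most peaks more than 5 Mb before it sit below. Of the 6 BNC1 peaks, 1 falls in one of the 3 fullest windows, beyond its last H3K4me3 peak, and the median index of the 11 H3K4me3 peaks at the far end (16.8) is below the dashed line (19.2).

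Gaps of over 1 Mb divided the peaks into 5 stretches. The first, chr12:100139113-107248182, held 87 peaks over 7.11 Mb, or 12.2 peaks per Mb. The second, chr12:109416673-110133055, was only 0.716 Mb long and held 18 peaks (25.1 per Mb). The third, chr12:111326184-114393297, was the densest, with 119 peaks over 3.07 Mb (38.8 per Mb). Beyond it lay 7 peaks in chr12:116790666-117644298 and 11 peaks in chr12:118771912-120477429. The first 3 stretches thus held 224 of the 242 peaks.

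The 5 longest gaps bounded or broke up these stretches. The longest ran for 2.40 Mb from 114393297 to 116790666, directly after the densest stretch. The gap from 107248182 to 109416673 measured 2.17 Mb, that from 110133055 to 111326184 measured 1.19 Mb and that from 117644298 to 118771912 measured 1.13 Mb. The fifth, from 102322655 to 103150653, was 0.828 Mb long. In all, 7 gaps of 500 kb or more took up 9.01 Mb, or 44.0% of the interval, and the 242 peaks lay in the rest of it.

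Within the stretches, peaks stood close together. Peaks were joined into clusters where neighbouring edges were at most 10 kb apart. This gave 110 groups, of which 49 were single peaks, 31 were pairs and 30 were clusters of 3 or more peaks. The clusters of 3 or more took in 131 of the 242 peaks, or 54.1% (95% Wilson interval 47.8 to 60.3%), against 26.1% of the whole list. On chromosome 12 before 100 Mb this share was 23.2% (19.2 to 27.7%). The median distance between neighbouring edges was 6624 bp in the distal interval and 41158 bp before it. When peaks within 1 kb were first merged, the share of domains in clusters was 28.5% in the distal interval, 12.3% before 100 Mb and 10.3% in the chromosome ends. Closeness of peaks is part of the density for which the interval was picked, so these shares describe that choice.

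The cluster with most peaks, chr12:112927605-112951896, held 10 peaks with 788 tags in 24292 bp, and 26.1% of its span was covered by peaks. Its peaks were of middling size, between 317 and 996 bp wide, at 4.17- to 7.43-fold enrichment. The next, chr12:114033156-114046484, packed 9 peaks with 650 tags into 13329 bp. Its folds were uniformly low, between 4.83 and 6.09. Clusters of 8 peaks each lay at chr12:106783801-106799898 (738 tags) and at chr12:104564535-104585886 (723 tags). The fifth, chr12:111934802-111949940, held 7 peaks and 769 tags, and with a highest fold of 8.64 it contained the strongest peak by fold of these 5 clusters. In all, 9 clusters had 5 or more peaks and together held 63 peaks.

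Many neighbours were nearly in contact. Of the 241 distances between neighbouring edges, 77 (32.0%) were at most 1 kb, 27 (11.2%) were at most 100 bp and 8 were under 20 bp, down to 1 bp. Before 100 Mb the share of distances at or under 1 kb was 21.4%, and in the pooled terminal 20 Mb of the 17 chromosomes used for comparison it was 22.5%. The share at or under 100 bp was 6.76% before 100 Mb and 7.17% in the pooled ends, but 11.6% in the end of chromosome 3. Distances under 20 bp were counted in the distal interval only. When peaks within 1 kb were merged into domains, the 242 peaks became 165 domains, of which 103 were single peaks, 52 had 2 peaks, 6 had 3 and 4 had more. The median domain was 902 bp wide in the distal interval, 470 bp before 100 Mb and 441 bp in the chromosome ends. The widest domain, chr12:106791309-106795679, spanned 4371 bp with 4 peaks and 377 tags, and was followed by chr12:114042448-114046484, with 5 peaks and 361 tags in 4037 bp. A domain of 3587 bp at chr12:102013719-102017305 had more tags, 466, and its 4 peaks covered 90.0% of it.

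The peaks themselves were wide and rich in tags. Their median width was 597 bp (interquartile range 448 to 823 bp), and their median number of tags was 75 (57 to 114). Before 100 Mb on the same chromosome the medians were 385 bp and 44 tags, and in the chromosome ends 379 bp and 44 tags. The ratio of medians to the part before 100 Mb was thus 1.55 for width and 1.70 for tags. Peaks wider than 500 bp numbered 155 of 242, or 64.0% (57.8 to 69.8%), against 29.3% of the whole list, 26.1% before 100 Mb and 26.9% in the chromosome ends. Peaks over 1 kb wide made up 15.3% of the distal peaks, 3.23% of those before 100 Mb and 3.06% of those in the chromosome ends.

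The single widest distal peak had 2118 bp, against 2318 bp before 100 Mb. The smallest distal peak by tags, chr12:112625339-112625543, was 205 bp wide with 27 tags, and 6 peaks had fewer than 30. Peaks with fewer than 27 tags made up 8.55% of the whole list, 6.74% before 100 Mb and 8.50% in the chromosome ends. Peaks of up to 300 bp made up 4.96% of the distal peaks, 26.4% of those before 100 Mb and 26.4% of those in the chromosome ends. Other small members were chr12:103196699-103196928 and chr12:105303561-105303821, each with 29 tags. They differed in fold enrichment, at 7.22 and 9.75.

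**Figure D2:**
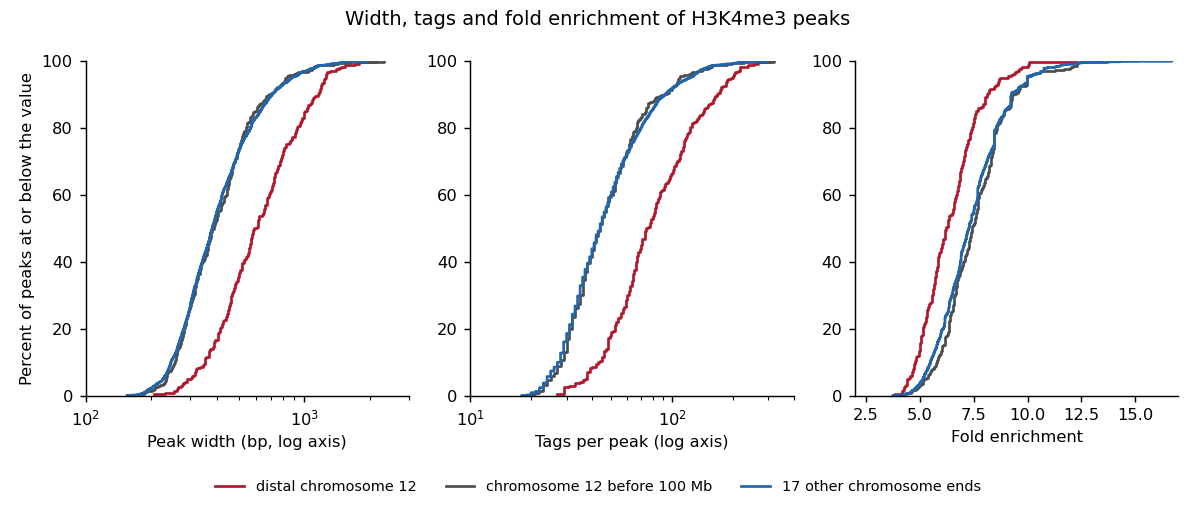
Each panel shows the percent of H3K4me3 peaks at or below a value on the y axis and that value on the x axis: width in bp, tags per peak (both on log axes) and fold enrichment. The lines stand for the 242 peaks of distal chromosome 12, the 371 before 100 Mb and the 1929 in the terminal 20 Mb of 17 other chromosomes. The distal line lies to the right for width (median 597 bp against 385 and 379 bp) and tags (75 against 44 and 44) and to the left for fold enrichment (6.24 against 7.41 and 7.28).

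The peaks with most tags were also the widest. The peak chr12:114103661-114105778 was 2118 bp wide and held 308 tags at 7.94-fold enrichment. The peak chr12:111618970-111620738 held 267 tags in 1769 bp at 8.51-fold, and chr12:110003160-110004862 held 254 tags in 1703 bp at 9.70-fold. The last of these had the strongest p-value of the interval, with 571.11 on the listed scale of 10 × −log10 p, followed by 563.70 for chr12:119081614-119082787 and 480.30 for the 1769 bp peak.

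By fold enrichment the order was different. The highest fold of the interval, 12.25, belonged to chr12:119081614-119082787, with 196 tags in the sparse stretch near the end of the chromosome and its summit, the position of highest pileup, listed 133 bp into a peak of 1174 bp. The peak chr12:112996374-112997567 (217 tags) and the much smaller chr12:113368133-113368546 (63 tags) both had a fold of 10.08. The former was also the densest in tags of all members, at 181.7 tags per kb. In all, 12 of the 242 peaks exceeded 9-fold enrichment and 33 were under 5-fold. Shares past these cut-offs were not computed for the whole list, so the counts describe the interval only.

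As a group, the distal peaks had higher tag numbers but lower fold enrichment than the comparison groups. The median fold enrichment, which is the listed ratio of a peak over the background that the peak caller expected there, was 6.24 (interquartile range 5.35 to 7.19) in the distal interval, 7.41 (6.48 to 8.46) before 100 Mb and 7.28 (6.32 to 8.46) in the chromosome ends. Folds below 6.17, the lower quartile of the whole list, were found in 113 of the 242 peaks, or 46.7%, against at most 25% of the list by construction. The lower quartiles of both comparison groups, 6.48 and 6.32, lay above 6.17, and their shares below it were not computed. Tags per kb of peak went the other way, with a median of 129.5 (119.7 to 143.3) against 115.4 (108.2 to 125.1) before 100 Mb and 116.4 (108.6 to 125.0) in the chromosome ends. The median distal peak thus had 1.12 times the tags per kb of the median peak before 100 Mb but 0.841 times its fold.

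The relation of the 2 values can be expressed as a background index, the tags per kb divided by the fold enrichment. It follows the expected background only up to a factor that may differ between peaks. The exact numerator of the listed fold is not given in the sources used here. The distal peaks had a median index of 21.0 (18.6 to 23.6), compared with 15.5 (13.7 to 17.7) before 100 Mb, 16.04 (13.9 to 18.7) in the chromosome ends and 16.1 in the whole list. An index above 19.2, the upper quartile of the list, was found in 165 of the 242 peaks, or 68.2% (62.1 to 73.7%), against 25% of the list by construction, 15.6% (12.3 to 19.7%) before 100 Mb and 22.0% (20.2 to 23.9%) in the chromosome ends. The level of the input library in these places was not analysed here.

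The raised index was not a matter of the fullest windows alone. Among the 15 windows with 5 or more peaks, the median index ran from 18.4 (100 to 101 Mb) to 23.0 (117 to 118 Mb, 6 peaks), and each of these medians was above the 16.1 of the whole list. The median tags per kb of these windows ran from 119.2 to 140.8. By stretch, the median index was 20.9 in the first, 19.6 in the second, 22.0 in the third and 21.8 in the 7 peaks of the fourth. The last stretch differed, with a median index of 16.8 (14.3 to 19.7) over its 11 peaks, near the value of the list. Its median fold of 7.51 was likewise near that of the list, and its peaks were small, with medians of 401 bp and 48 tags.

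At the other side, the boundary at 100 Mb did not coincide with a step in the values. The first members inside it were chr12:100139113-100139633, with 79 tags, a fold of 8.68 and an index of 17.5, and chr12:100158006-100159005, with 128 tags, a fold of 4.27 and an index of 29.98. The last peaks outside it were chr12:99975784-99976682, with 124 tags, a fold of 6.34 and an index of 21.8, and chr12:99975391-99975763, with 49 tags, a fold of 7.05 and an index of 18.6. The 6 peaks between 95 and 100 Mb all started at or after 99497032 and had indices from 18.6 to 21.8. Before them lay a gap of 6.67 Mb that reached back to 92829055. The 52 peaks between 85 and 95 Mb were 388 bp wide in the median, and their median index was 15.1. The groups of peaks with low and high median index were thus separated by this gap and not by the boundary.

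Because the index could depend on the width of a peak, it was compared within classes of width. Among peaks over 300 and up to 500 bp wide, the median index was 20.8 in the 75 distal peaks, 15.5 in the 176 before 100 Mb and 16.6 in the 900 of the chromosome ends. Among peaks over 500 and up to 800 bp it was 21.8 in 90 distal peaks, 16.4 in 73 before 100 Mb and 16.8 in 384 of the chromosome ends. Among peaks over 800 bp the distance was smaller, with 21.2 in 65 distal peaks (95% interval of the median 20.4 to 22.7), 19.3 in 24 before 100 Mb (14.3 to 21.8) and 18.3 in 135 of the chromosome ends (17.4 to 19.2). In that class the interval before 100 Mb overlapped that of the distal peaks. Up to 300 bp there were only 12 distal peaks, with a median of 17.2 against 14.5 in both other groups. The interval of the distal median, 14.7 to 21.6, overlapped those before 100 Mb (13.9 to 15.3) and in the chromosome ends (14.2 to 14.8). Median fold enrichment was also lower in the distal peaks in each class. For peaks over 500 and up to 800 bp it was 5.91 against 7.30 before 100 Mb and 7.39 in the chromosome ends. Over 800 bp the distance was smaller, at 6.83 against 7.165 and 7.38.

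**Figure D3:**
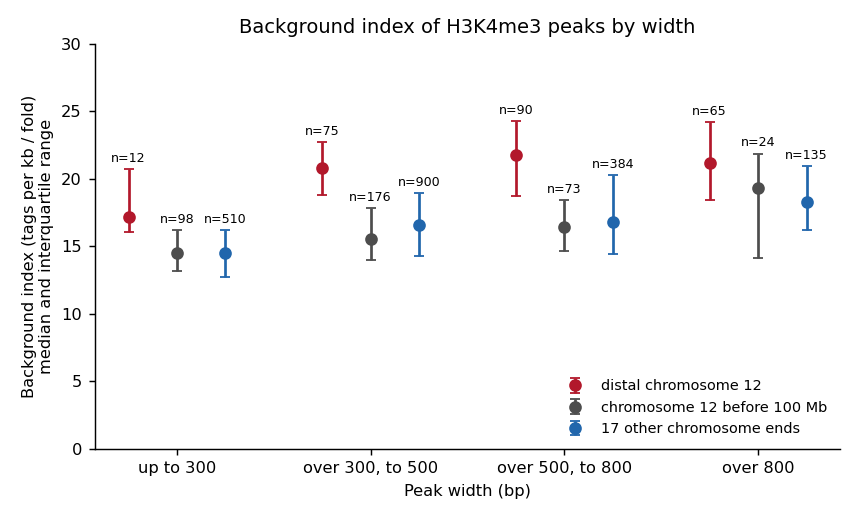
The median background index (tags per kb divided by fold enrichment, y axis) with its interquartile range is shown for H3K4me3 peaks in 4 classes of width in bp (x axis), with the number of peaks above each bar. Distal chromosome 12 has the highest median in each class, 17.2, 20.8, 21.8 and 21.2 from narrow to wide, and in both middle classes its range lies above that of the peaks before 100 Mb but overlaps that of the chromosome ends.

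The interval was then set against the terminal 20 Mb, before the last listed peak, of chromosomes 1 to 11, 13, 14 and 16 to 19. At 11.8 peaks per Mb (exact Poisson interval 10.4 to 13.4), distal chromosome 12 was 2.57 times as dense as the median of these 17 ends, which was 4.60, and 3.19 times as dense (2.70 to 3.76) as chromosome 12 before 100 Mb. Density did not set it apart, since the end of chromosome 11 had 14 peaks per Mb, that of chromosome 8 had 11.75 and that of chromosome 19 had 11.55. After merging within 1 kb, 3 of the 17 ends had more domains per Mb than the 8.06 of distal chromosome 12. With the terminal 30 Mb taken on chromosome 12 as well as on the 17 others, the ratio to the median end was 1.63. The lowest density of the 17 was that of chromosome 14, with 0.65 peaks per Mb. Because the interval was picked from peak density, the density ratios describe that choice.

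In the character of its peaks distal chromosome 12 stood outside the range of the 17 ends. Its median width of 597 bp compared with 262 to 462 bp in the ends, its median of 75 tags with 28 to 57, and its median of 129.5 tags per kb with 105.1 to 122.4. Its median fold of 6.24 was below the 6.67 to 8.46 of the ends, and its median index of 21.0 was above their 12.2 to 18.4. The nearest end in width, tags, tags per kb, fold and index was in each case that of chromosome 19. The 95% interval of the median index ran from 20.6 to 21.7 on distal chromosome 12. The share of peaks in clusters, which goes with the density for which the interval was picked, was 54.1% against at most 46.4% (chromosome 17, 37.9 to 55.1%) in the ends, with overlapping intervals, and the share of distances at or under 1 kb (32.0%) was close to the 31.4% of chromosome 3.

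**Figure D4:**
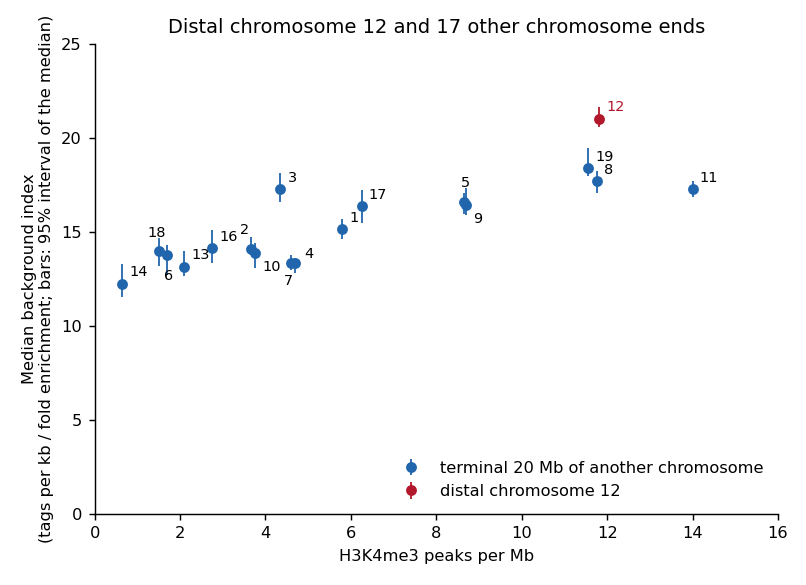
Each point is a chromosome end, labelled with its chromosome, with H3K4me3 peaks per Mb on the x axis and the median background index with its 95% interval on the y axis. Distal chromosome 12 (21.0) lies above the ends of chromosomes 8, 11 and 19, which have a like density and medians of 17.7, 17.3 and 18.4.

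A wider comparison was made over all windows of 10 Mb on chromosomes 1 to 19 that held at least 20 H3K4me3 peaks, of which there were 156. By median index, the window from 110 to 120 Mb of chromosome 12 ranked 8 with 21.6 and that from 100 to 110 Mb ranked 10 with 20.9. The windows above them were on chromosome 15, where the highest median was 33.6, and on chromosome 9, where it was 27.7. The next window of chromosome 12, from 50 to 60 Mb, ranked 41 with 16.99. By width, the window from 100 to 110 Mb ranked 7 with a median of 634.5 bp and the one after it ranked 8 with 579 bp. Values of this kind were thus shared with parts of chromosomes 9 and 15 and were not particular to chromosome 12.

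The second antibody gave few peaks in the same interval. Of the 66 BNC1 peaks on chromosome 12, 6 started at or beyond 100 Mb. The interval was defined on the H3K4me3 list, but with the small number of BNC1 peaks there already known. Their low number is therefore described here and is not an independent finding. These 6 peaks were short and low, like most in their list, where the median was 8 tags. The first, chr12:108269315-108269472, held 9 tags at 8.37-fold enrichment and lay in the gap around 108 Mb, 1021 kb from the nearest H3K4me3 peak. The second, chr12:114932805-114932995, held 10 tags at 10.04-fold and lay 540 kb beyond the last peak of the densest stretch. The third, chr12:117051717-117051818, held 10 tags in 102 bp and had the highest fold, 12.84, and the strongest p-value, 61.01 on the listed scale. These 3 were all more than 200 kb away from any H3K4me3 peak.

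The others were chr12:118061099-118061233, with 8 tags at 7.84-fold, chr12:120012520-120012684, with 10 tags at 5.95-fold, and chr12:120967542-120967683, with 8 tags at 8.23-fold. The middle one had the shortest distance, 31.7 kb, to an H3K4me3 peak, chr12:120044401-120045561, which held 160 tags. The last lay 490 kb beyond the last listed H3K4me3 peak. No BNC1 peak of the interval overlapped an H3K4me3 peak or came within 10 kb of one. Such nearness was rare everywhere, since before 100 Mb 2 of 60 overlapped one and 9 lay within 10 kb, and over the 2562 BNC1 peaks on chromosomes with H3K4me3 peaks 1.41% overlapped one and 9.91% lay within 10 kb. The Wilson interval of 0 of 6 reaches 39.0% and includes these shares. The median distance was 453 kb in the interval and 172 kb before it. The median BNC1 background index was 7.20 for these 6 peaks and 6.44 for the 60 before 100 Mb, and their range of 5.21 to 10.2 spanned both.

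BNC1 peaks were few for the length of the interval, but not fewer than in every chromosome end. In the first 3 stretches, with 224 H3K4me3 peaks over 10.9 Mb, 0 BNC1 peaks were listed. No upper bound on density is drawn from this count, because these stretches were singled out after the positions of the BNC1 peaks were seen. The last 2 stretches, with fewer H3K4me3 peaks per Mb, held 1 BNC1 peak each, and the others lay in gaps or beyond the last H3K4me3 peak. Up to that last peak there were 5 BNC1 peaks, or 0.244 per Mb (exact Poisson interval 0.0793 to 0.570). This was 0.407 times the 0.60 per Mb before 100 Mb, but the interval of that ratio, 0.128 to 1.003, included 1. Against the 17 chromosome ends pooled, with 305 BNC1 peaks counted likewise, the ratio was 0.272 (0.0878 to 0.642). The single ends varied widely, from 0.25 per Mb (chromosome 7) to 1.85 per Mb (chromosome 8) with all their BNC1 peaks counted. Counted in this way, the distal interval had 0.293 per Mb and the end of chromosome 18 had 0.30.

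The number was also low relative to H3K4me3. With all 6 peaks counted, the interval had 2.48 BNC1 peaks per 100 H3K4me3 peaks (exact interval 0.901 to 5.48), compared with 16.2 (12.1 to 21.3) before 100 Mb and 16.5 (14.6 to 18.6) in the chromosome ends. The 3 ends of like density had 37 BNC1 peaks (chromosome 8), 24 (chromosome 11) and 32 (chromosome 19), which is 12.5 per 100 H3K4me3 peaks (9.94 to 15.5), or 5.03 times the distal value (2.22 to 14.1). Of the 17 ends, that of chromosome 7 had 1 BNC1 peak fewer than distal chromosome 12 but 5.43 per 100 H3K4me3 peaks, so none had a lower proportion. Among the 156 windows of 10 Mb, the windows from 100 to 110 Mb and from 110 to 120 Mb had the lowest and the second lowest proportion, with 1 and 2.17 per 100. With BNC1 peaks at or above 50 on the listed p-value scale alone, which 15.3% of those 2562 BNC1 peaks reached, 1 of the 6 was left, and the proportion was 0.413 per 100 against 1.89 before 100 Mb and 1.97 in the chromosome ends. The raised H3K4me3 count enters this proportion as its denominator. Since most BNC1 peaks sit at the lowest tag numbers of their list, whether BNC1 binds below that level in the interval was not detectable at this depth.

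**Figure D5:**
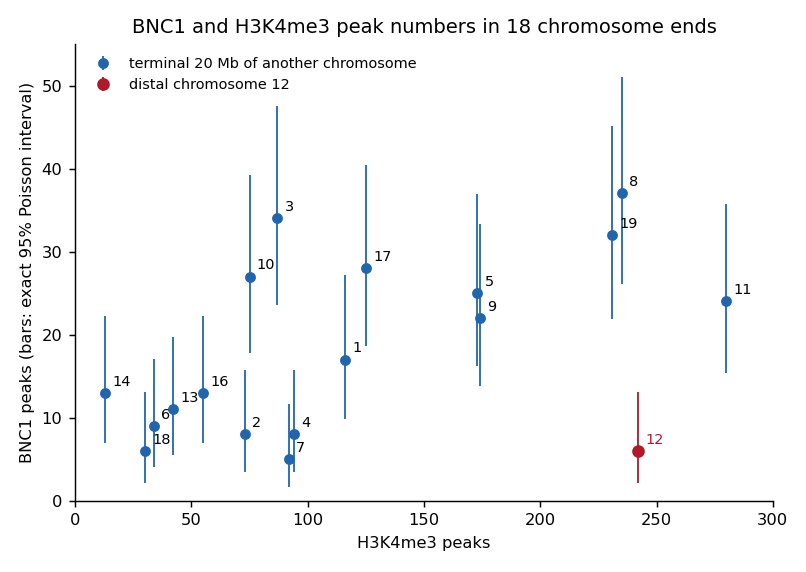
Each point is a chromosome end, labelled with its chromosome, with the number of its H3K4me3 peaks on the x axis and the number of its BNC1 peaks with an exact 95% Poisson interval on the y axis. Distal chromosome 12, with 242 H3K4me3 and 6 BNC1 peaks, lies below the ends of chromosomes 8, 11 and 19, which have 37, 24 and 32 BNC1 peaks.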

How the data were processed

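Peak lists of 1 H3K4me3 and 1 BNC1 ChIP-seq library were analysed. The submitters' processing notes name Bowtie2, MACS2 2.1.0 and mm9, without roles. The column names are those of an earlier MACS version, so how tags and fold, and hence the background index, were defined is uncertain. The caller's settings and control library are not given in the sources used here. The study's methods and the labels name different BNC1 antibodies. Per the file headers, the authors gave for each peak its tags as raw counts, a p-value as −log10 times 10, a fold enrichment (a ratio to expected background) and a false discovery rate in percent, which was not used to filter. The p-value floors of the lists were 50.01 (H3K4me3) and 40.01 (BNC1). Total sequencing depth is unknown. Tags inside peaks summed to 617686 and 45704.

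The tools were Python 3.11.15, pandas 2.3.3, numpy 2.4.6, scipy 1.17.1 and, for plots, matplotlib 3.10.9. Peaks were placed in windows by their start. Functions were tested on simulated data. Density was taken up to the last listed H3K4me3 peak, here 20.5 Mb. Intervals of medians are binomial order-statistic intervals. All intervals treat peaks as independent although many lay close together, so they may be too narrow. Shares carry Wilson intervals, and counts and ratios of counts exact ones. Peaks were named by rank (the top 3 by width, tags, fold and p-value, the 3 with fewest tags, the 5 fullest clusters, the 5 longest gaps, all 6 BNC1 peaks and the peaks beside the boundary). Other peaks and domains were chosen after their values were seen. The interval, measures and lists were chosen with earlier results of these data known. No sequence is shown, since no genome of the lists' build was used.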

Additional observations from a re-analysis of the deposited data

How the results depend on the processing

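Of 32 recomputed values, 19 stayed within 1.5 times the main count or within the interval of the main value and 13 moved further. Both density ratios and the index ratio stayed above 1. The interval was picked from peak density, so the density ratios describe that choice. The median tags per kb and the share in clusters stayed above, and the BNC1 proportion below, those of both comparison groups wherever these were recomputed at the same setting. The causes were not tested. The count of 242 distal peaks was 165 to 248 under its alternatives. The density ratio to the part before 100 Mb (3.19) was 2.53 with a boundary at 95 Mb, which adds a stretch without listed peaks, and 2.76 to 3.53 otherwise. The density ratio to the median chromosome end (2.57) was 3.08 at 10 × −log10 p of 60 or more and 2.01 after merging within 1 kb. It was 3.04 with ends of 10 Mb and 1.63 with ends of 30 Mb. In these 2 settings chromosome 12 was also cut to that terminal length. The median of 129.5 tags per kb was 124.7 for merged domains, whose span includes bases between peaks, and 135.3 as pooled tags over pooled length. The share in clusters (54.1%) was 41.3% with linkage at 5 kb, 67.8% at 20 kb and 28.5% after merging, where a cluster needs 3 domains, against 18.1%, 29.6% and 12.3% before 100 Mb. The 2.48 BNC1 peaks per 100 H3K4me3 peaks became 0.413 at 10 × −log10 p of 50 or more, where 1 BNC1 peak was left, and 2.07 up to the last H3K4me3 peak. The last of these, the recomputed comparison groups and the following were chosen after seeing the data. The index ratio to the chromosome ends (1.31) was 1.26 for peaks over 300 and up to 500 bp, 1.16 over 800 bp and 1.29 without the 3 fullest windows. No paired analysis was possible because each antibody has 1 library. Unknown depth and the p-value floors limit what small peaks the lists can show.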
